A study of Homo sapiens with 5 samples.

Results

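The genes described here encode the nuclear subunits and assembly factors of cytochrome c oxidase, the subunits of mitochondrial ATP synthase, and the electron carriers cytochrome c and cytochrome c1. They were picked by name: protein-coding rows, without a pseudogene term, whose deposited symbol begins with COX and a digit or with ATP5, or is CYC1, CYCS, COA1 or COA3 to COA7. The rule found 54 of 18568 rows. Of these, 47 had at least 10 normalized reads in at least 2 libraries and were tested together with all 6317 genes that passed that filter. In the pathway and marker lists used below, the genes that passed it have symbols from A to I. Shares, medians and adjusted p-values over all genes therefore speak of the rows analysed and are not shown to cover the whole transcriptome. The theme was chosen with the antagomir difference of COX19 already known, so every antagomir difference of these genes is given as a description and none is read as a test. Total RNA, depleted of ribosomal RNA, was sequenced from IMR90, an established fibroblast line from human lung. All libraries came from cells carrying a retroviral vector for RASV12, a constantly active RAS protein that drives fibroblasts into senescence, and puromycin selection lasted 3 days. Cells were seeded on day 10 after infection and transfected 24 hours later with an antagomir, an antisense oligonucleotide that blocks a microRNA; the labels give the harvest time without a unit. The control antagomir was given to 2 libraries (columns B and C of the deposited table) and the antagomir against miR-146a to 3 (columns A, B and C). No cells without RASV12 enter the comparison, so it speaks of senescent cells only, and the column letters could not be tied to single numbered samples.

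Cytochrome c oxidase is the last enzyme of the respiratory chain: it takes electrons from cytochrome c, passes them to oxygen and pumps protons across the inner mitochondrial membrane. Its catalytic core is encoded by mitochondrial DNA, and nuclear genes supply the surrounding subunits and a large set of factors that insert copper and haem. ATP synthase lets the protons flow back through its membrane part, Fo, and uses that flow to make ATP in its catalytic head, F1. Senescent fibroblasts, including those driven by RAS, are known for altered mitochondrial mass and respiration.

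Because the antagomir targets miR-146a, its mature sequence and the matches to its seed in the genes are shown first. The seed, bases 2 to 8, is in capitals in the mature sequence from RefSeq (GRCh38.p14, chr5:160485372-160485393, plus strand).
miR-146a-5p: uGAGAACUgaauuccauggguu
A full match (8mer) is AGTTCTCA and the shorter matches are AGTTCTC and GTTCTCA; they were searched on the transcript strand of the longest annotated 3′ UTR of each gene in GENCODE 29 (GRCh38). Of the 47 tested genes, 7 (14.9%) held a match, against 20.6% of 5063 other tested protein-coding genes, whose median 3′ UTR was longer (1324 bases against 444). Among UTRs of 197 to 1674.5 bases, the middle of the members' lengths, the order turned: 3 of 23 members (13.0%) against 9.13% of the others. An 8mer was found in 3 tested genes (6.38%, against 4.58%): COX19, ATP5E and COX15. COX19 and COX15 also had a 7mer each. These sites are shown because COX19 and ATP5E had the lowest antagomir fold changes of all members; the COX15 site is the remaining 8mer. The match is in capitals, and all lie on the minus strand.
COX19 8mer, chr7:968605-968632: ccctgagcggAGTTCTCAgcccgtctgt
COX19 7mer, chr7:968234-968260: gcccatctccAGTTCTCtgcagcaaag
ATP5E 8mer, chr20:59027895-59027922: ttctaggatcAGTTCTCAcatggtactt
COX15 8mer, chr10:99712053-99712080: gtaatgagtgAGTTCTCActctggttgt
The genes with an 8mer did not share a direction: COX19 and ATP5E lay lower with anti-miR-146a, whereas COX15 had a log2 fold change of 0.02 (SE 0.13). Only a shorter match was found in ATP5G2, ATP5S, COA1 and COX10, with log2 fold changes of 0.12, 0.33, 0.12 and 0.23. A match describes letters in a 3′ UTR, and whether miR-146a acts on any of these genes was not tested.

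Promoters of respiratory genes are known for sites of the factors NRF1 and GABP, an ETS protein. In RefSeq windows of 250 bases before to 50 after the start (41 of the 54 genes matched; ATP5B, ATP5D, ATP5EP2, ATP5G3, ATP5J2, ATP5J2-PTCD1, ATP5L2, ATP5S, COX11, COX4I2, COX6C, COX7A1 and CYC1 did not), the NRF1 core GCATGCGC on either strand was in 9 of 37 tested genes (24.3%), against 4.82% of 4108 other tested protein-coding genes and 3.27% of all 27305 promoters. The ETS core CCGGAAG on either strand was in 15 of 37 (40.5%), against 17.3% and 10.7%. The reverse complements searched were GCGCATGC and CTTCCGG, and forward and reverse matches may overlap. The 3 windows below are shown because CYCS and COX6A1 hold NRF1 matches while COX19 holds neither core; matches are in capitals.
CYCS, chr7:25125211-25125510, minus strand: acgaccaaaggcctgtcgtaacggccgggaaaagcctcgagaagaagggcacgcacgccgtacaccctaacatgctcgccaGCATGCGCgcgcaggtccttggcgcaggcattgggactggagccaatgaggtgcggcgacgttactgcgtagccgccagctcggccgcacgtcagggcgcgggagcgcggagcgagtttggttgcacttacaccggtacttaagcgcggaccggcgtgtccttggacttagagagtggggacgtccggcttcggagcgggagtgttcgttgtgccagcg
COX6A1, chr12:120437863-120438162, plus strand: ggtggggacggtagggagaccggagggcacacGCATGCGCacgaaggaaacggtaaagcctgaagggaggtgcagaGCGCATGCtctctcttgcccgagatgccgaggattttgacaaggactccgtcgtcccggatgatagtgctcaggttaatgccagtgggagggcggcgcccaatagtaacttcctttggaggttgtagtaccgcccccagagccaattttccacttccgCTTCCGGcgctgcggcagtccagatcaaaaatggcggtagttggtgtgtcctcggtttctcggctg
COX19, chr7:975500-975799, minus strand: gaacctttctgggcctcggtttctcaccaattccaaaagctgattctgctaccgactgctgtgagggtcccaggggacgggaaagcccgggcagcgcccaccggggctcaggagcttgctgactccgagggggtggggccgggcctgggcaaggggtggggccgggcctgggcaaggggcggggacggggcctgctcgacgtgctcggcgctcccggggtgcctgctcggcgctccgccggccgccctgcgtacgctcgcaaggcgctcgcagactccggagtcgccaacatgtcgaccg
Of the genes with the lowest fold changes, COX19, COX20 and ATP5E held neither core and CYCS held the NRF1 core. A match describes letters in a window and is not a measured binding site.

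The rows analysed held between 8430859 and 9283950 reads per library, which is part of each library and not its full depth. Both C libraries differed from the other 3: they lay apart along the leading principal component (53.4% of the variance), and the correlation across genes was 0.988 between control C and anti-miR-146a C but 0.979 between the controls. What the letter stands for is not given by the labels. All 11 fibroblast markers with a row were expressed, with summed values of 252474 to 372827 normalized reads in the controls and 273957 to 354091 with anti-miR-146a. The summed epithelial, endothelial and blood markers each stayed between 33.6 and 212, with CD3E at 0 in every library and CDH1 at 0 in all but anti-miR-146a A (0.944). Rows were found for 11 of 16 listed fibroblast, 5 of 8 epithelial, 4 of 7 endothelial and 5 of 7 blood markers. Listed markers such as VIM, VWF and PTPRC had no row, so these sums speak only of the markers that had one. The 5 blood markers with a row summed to 33.6 to 42.0 in the controls and 45.3 to 56.6 with anti-miR-146a; the part of this in the antagomir differences was not tested. The labels do not say whether the libraries were separate cultures, so p-values speak of the variation among the 5 libraries alone, and that variation may be technical.

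Levels spanned a wide range among the members. Per kilobase of annotated exon, ATP5B, the catalytic beta subunit of F1, had the highest level at 4173 normalized reads per kb (4029 to 4354 over the 5 libraries). COX6B1, a cytochrome oxidase subunit on the side of the intermembrane space, followed at 1806 (1561 to 2022), and ATP5C1, the rotating gamma subunit, at 1062 (996 to 1131). Neither ATP5B nor COX6B1 overlapped the next gene in the order, whereas from ATP5C1 down to ATP5O every gene overlapped its neighbour. ATP5I, a small membrane subunit, had 915, COX4I1, the large regulatory subunit, 849, and COX5A 809. The same 3 genes came first when the longest transcript was used as the length.

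Within the oxidase assembly factors COA4 (343 per kb) and COA6 (305 per kb), both small twin-cysteine proteins, were highest. With the longest transcript as the length COX17 (406 per kb, from 128) lay above COA6 (378 per kb). The lowest tested assembly factors were COX18, which inserts a core subunit into the membrane (46.4 per kb), and COX16 (21.9 per kb). Cytochrome c1 (CYC1) had 552 and cytochrome c (CYCS) 421 per kb, with ranges that overlapped.

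**Figure D1:**
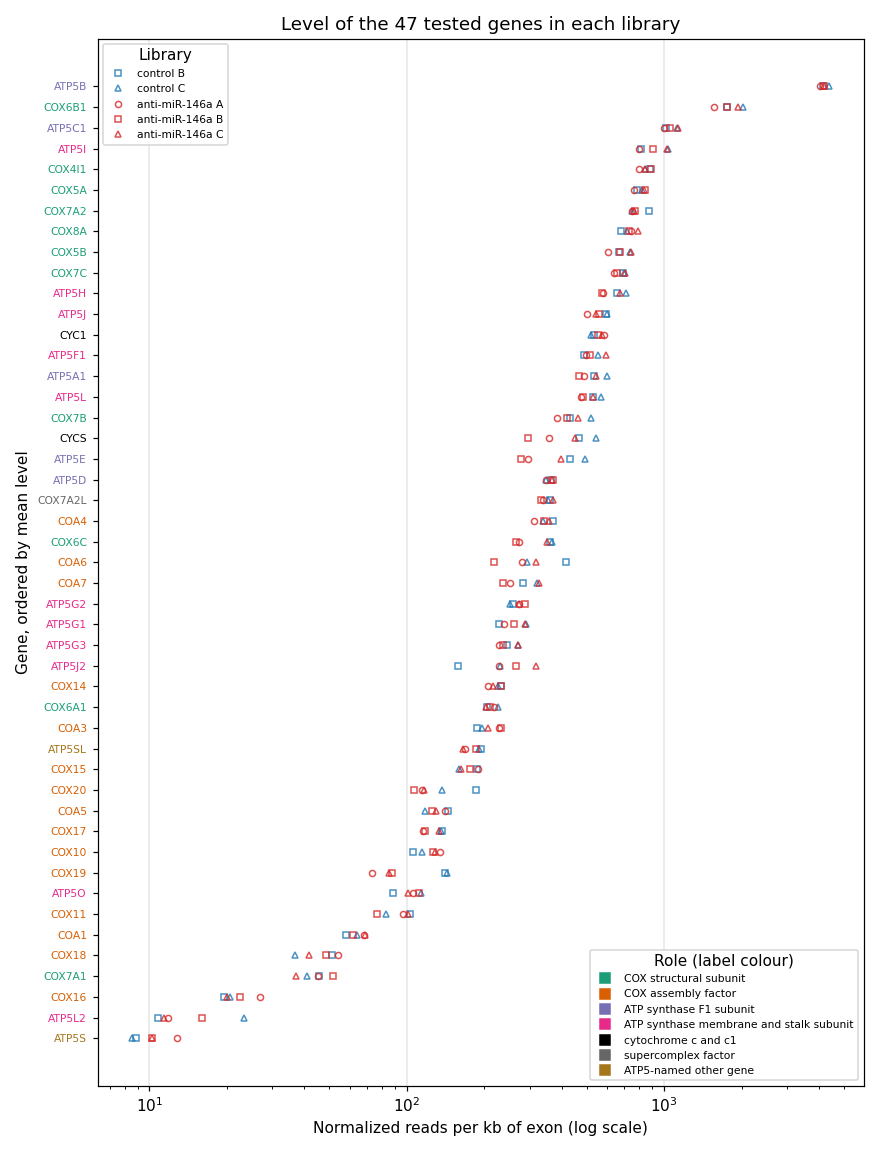
Normalized reads per kb of exon (x axis, log scale) of the 47 tested genes (y axis, ordered by mean, label colour by role) in 2 control (blue) and 3 anti-miR-146a libraries (red), the marker shape giving the column letter. ATP5B and COX6B1 lie to the right of all others, and the 5 points of most genes lie close together relative to the distance between genes.

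Tissue-specific isoforms were almost silent beside the common ones. COX4I2, the isoform known from lung and hypoxia, had 1 read in all 5 libraries together, against 3813 to 4257 normalized reads per library for COX4I1. The muscle isoform COX6A2 also had 1 read, the testis isoform COX8C 4 reads, all in anti-miR-146a A, and COX7B2 none. A total of 0 reads allows up to 3 reads over the 5 libraries, as counting error only. COX6B2 had 41 reads in all. An exception was COX7A1, the heart and muscle isoform of subunit VIIa, at 45.8 and 41.0 normalized reads for the controls (B, C) against 45.3, 52.0 and 37.4 for the treated libraries (A, B, C). Its share of the COX7A1 and COX7A2 reads per kb was 4.64% to 6.32% (2.96% to 4.06% with the longest transcript as the length), and the groups overlapped. The 3 genes for the c-ring subunit of Fo had shares that depend on the length used. Per kb of all annotated exons, ATP5G1 took 31.2% to 35.7%, ATP5G2 31.0% to 36.9% and ATP5G3 30.2% to 33.5%. Per kb of the longest transcript, ATP5G2 took 42.9% to 49.5%, ATP5G1 24.6% to 28.9% and ATP5G3 24.8% to 28.2%. The other rows below the filter were ATP5EP2 (14 reads) and the read-through gene ATP5J2-PTCD1 (28 reads), which leaves 7 of the 54 untested.

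Between the antagomirs, most of the oxidase and ATP synthase genes differed little, and a few differed more. Of the 47 tested, 29 were lower and 18 higher with anti-miR-146a, with a median log2 fold change (on the log2(value + 1) scale) of −0.04, beside 0.0046 over all 6317 genes. In limma 0 of 47 members and 0% of all genes had an adjusted p under 0.05; at an unadjusted p under 0.05 there were 4 members, beside 11.3% of all genes. edgeR and limma voom called 0 members, and DESeq2 called 1, COX19, beside 0.792% of all genes. The authors' deposited table lists 1 of its 46 members with an adjusted p under 0.05, COX19, beside 2.57% of its rows with such a value. In 9 members (19.1%) every anti-miR-146a library lay below both controls, beside 13.5% of all tested genes, and in 6 (12.8%) every one lay above, beside 16.5%; over both directions the background was 30%. RNA of a whole culture cannot tell less RNA per cell from fewer cells that make it.

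**Figure D2:**
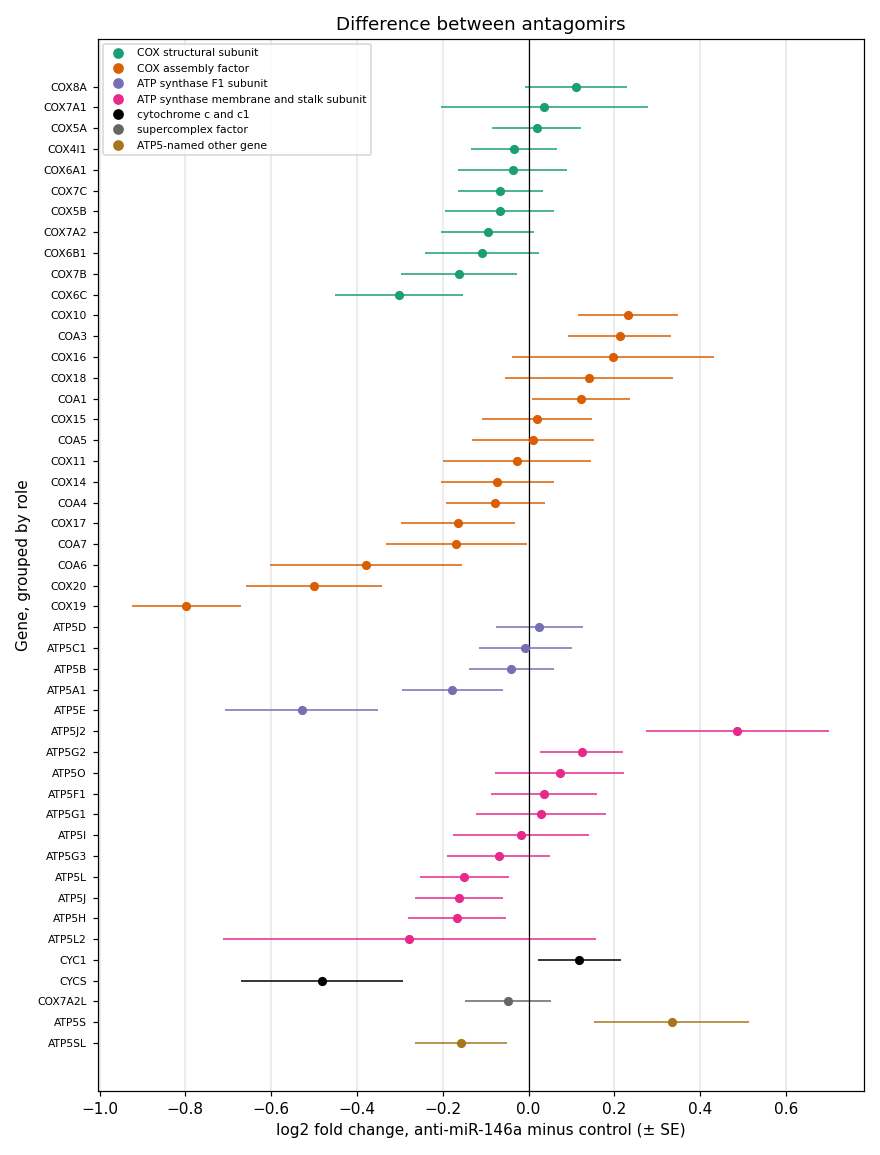
log2 fold change (x axis, anti-miR-146a minus control, bars ± SE from limma) of the 47 tested genes (y axis), coloured by role. COX19 lies lowest at −0.80 and ATP5J2 highest at 0.49, and most of the others lie near zero.

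Among the assembly factors, COX19, a twin-cysteine protein that works in copper delivery to the oxidase (chromosome 7, 898778 to 975599, minus strand, GRCh38), had 779.8 and 795.8 normalized reads for the controls (B, C) against 405, 486 and 471 for the treated libraries (A, B, C). The groups did not overlap, and the difference was of like size within each letter (log2 −0.68 for B and −0.75 for C). Its group means were 788 ± 11.3 (SD, n = 2) and 454 ± 43.4 (SD, n = 3), a ratio of 0.577, the same as the fold change of 0.577 in the authors' deposited table. In its annotation, 21.4% of COX19 exon bases are shared with ADAP1 on the same strand, a gene with 26.4 to 42.0 normalized reads per library. Its level did not follow the C libraries (log2 difference 0.06, SE 0.10, adjusted p 0.701 in limma).

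COX20, a chaperone of the copper-carrying core subunit COX2, had 906.8 and 663 normalized reads for the controls (B, C) against 558, 518 and 569 for the treated libraries (A, B, C). The groups did not overlap, but the 2 controls lay further apart than the 3 anti-miR-146a libraries did: the log2 fold change was −0.50 (SE 0.16), −0.28 without control B and −0.73 without control C. COX20 shares 72.0% of its exon bases with HNRNPU on the opposite strand, an abundant nuclear RNA-binding protein gene with 17785 and 15883 normalized reads for the controls against 13035, 12473 and 13433 for the treated libraries. The sources used here do not say whether counting used the strand, so reads of the pair cannot be told apart. Reads of the processed pseudogene COX20P1 (19.2 to 31.5) were few beside it.

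Other assembly factors moved less. COA6, which helps to load copper into COX2, had 523 and 368 normalized reads for the controls (B, C) against 353, 273 and 398 for the treated libraries (A, B, C), so the groups overlapped. COX17, the copper chaperone that hands copper on to the oxidase, had 299 and 295 against 251, 256 and 289, a small gap without overlap. On the higher side, COX10, which makes the haem A precursor of the oxidase, had 336 and 365 for the controls against 427, 399.8 and 408 for the treated libraries (log2 fold change 0.23, SE 0.12). COA3, which stabilises the new core subunit COX1, had 359.8 and 378 against 438, 448 and 398 (0.21, SE 0.12). COX10 and COA3 each showed no overlap between groups, with gaps of the order of their spread. WNK4, on the opposite strand, shares 42.5% of COA3 exon bases. Of the 15 tested assembly factors, 8 were lower and 7 higher (median −0.03).

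**Figure D3:**
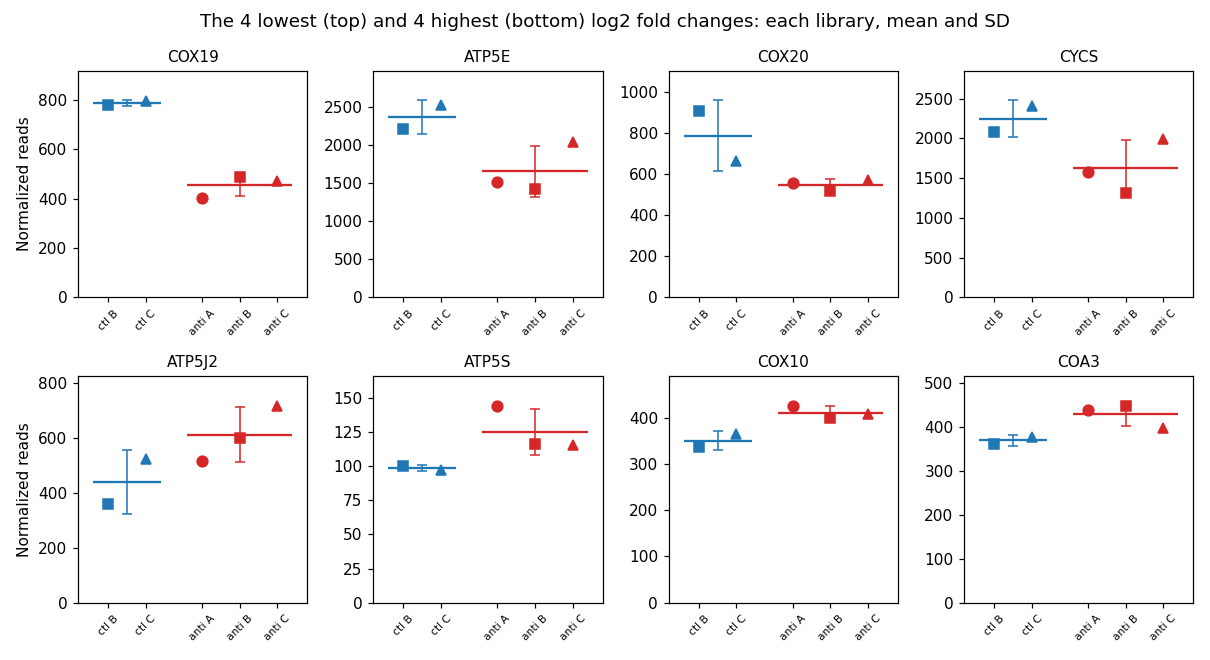
Normalized reads (y axes, from 0) in each of the 5 libraries for the 4 genes with the lowest (top row) and the 4 with the highest log2 fold change (bottom row); horizontal lines are group means and bars are SD (n = 2 controls in blue, n = 3 anti-miR-146a in red). COX19 shows the clearest gap (780 and 796 against 405 to 486), and only ATP5J2 overlaps between the groups, by control C at 523 and anti-miR-146a A at 518.

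Structural subunits of the oxidase stayed close between the antagomirs: 8 of 11 tested were lower and 3 higher, with log2 fold changes from −0.30 to 0.11. COX6C was the lowest, with 1107 and 1119 normalized reads for the controls against 839, 812 and 1078 for the treated libraries (log2 −0.30, SE 0.15). The anti-miR-146a C library lay close to the controls and the other 2 lay below them. Reads of COX6C pseudogenes came to 5.0% of its own, the largest such share among the members. COX7A2, the common form of subunit VIIa, had a log2 fold change of −0.10 (SE 0.11) and COX6A1 one of −0.04 (SE 0.13), both with overlapping groups. COX4I1 had 4225 and 4018 for the controls against 3813, 4257 and 4019 for the treated libraries, and these overlapped. COX6B1 had 1639 and 1893 against 1461, 1647 and 1811. COX8A was the highest, at 345 and 364 in controls against 378, 369 and 402 (log2 0.11, SE 0.12). The supercomplex factor COX7A2L, which joins the oxidase to complex III, had 2017 and 1981 against 1889, 1855 and 2068. Summed over the 16 structural subunits, the values were 14223 ± 218 (SD, n = 2) and 13474 ± 764 (SD, n = 3) normalized reads, a ratio of 0.947.

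In ATP synthase, 2 small subunits, ATP5E and ATP5J2, differed most. The catalytic beta gene ATP5B had 9595 and 10110.0 normalized reads for the controls (B, C) against 9354, 9731 and 9661 for the treated libraries (A, B, C), and ATP5C1 had 2354 and 2599 against 2318, 2445 and 2629.9, both with overlap. ATP5A1, the alpha subunit of the F1 head, had 5804 and 6537 against 5329.9, 5099 and 5943 (log2 −0.18, SE 0.12), also with overlap. ATP5E (now ATP5F1E), the epsilon subunit of the central stalk, had 2212 and 2525 for the controls against 1511, 1421 and 2044 for the treated libraries, with no overlap. The fold change of ATP5E was −0.53 on the log2 scale (SE 0.18), −0.64 within letter B and −0.30 within letter C. TUBB1, on the opposite strand, shares 23.2% of ATP5E exon bases and was not analysed here.

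ATP5J2 (now ATP5MF), a small subunit f of the membrane part, went the other way. It had 359 and 523 normalized reads for the controls (B, C) against 518, 602 and 719 for the treated libraries (A, B, C) (log2 0.49, SE 0.21). The value was 0.22 without control B and 0.76 without control C. The groups overlapped slightly, and within letters it was higher by 0.75 (B) and 0.46 (C). The c-ring gene ATP5G2 lay slightly higher without overlap (1029 and 1005 against 1092, 1144 and 1088), while ATP5G1 and ATP5G3 overlapped between the groups (log2 0.03 and −0.07). Of 16 tested ATP synthase subunits, 10 were lower and 6 higher. Their sums were 33799 ± 2177 (SD, n = 2) and 31803 ± 1846 (SD, n = 3), a ratio of 0.941. ATP5S and ATP5SL carry the ATP5 name but are not subunits of the enzyme. ATP5S had 100.2 and 97.0 normalized reads for the controls against 144, 116 and 115 for the treated libraries, and ATP5SL 853 and 832 against 735, 810.5 and 724, so they lay in opposite directions.

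Of the 2 cytochromes, the gene of cytochrome c itself was lower and that of cytochrome c1, a complex III subunit, was slightly higher. CYCS had 2086 and 2413 normalized reads for the controls (B, C) against 1583, 1312 and 1998 for the treated libraries (A, B, C) (log2 −0.48, SE 0.19). The groups did not overlap, and the anti-miR-146a C library lay close to control B. CYC1 had 1051 and 1023 in controls against 1155, 1094 and 1129.9 (log2 0.12, SE 0.10). Pseudogenes of CYCS, 19 of them with a row, came to 0.936% of its reads.

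With the C libraries as a term of the model, the same fit called 5 of 47 members (10.6%), beside 15.4% of all tested genes. COX19, COX20, ATP5E and CYCS were lower (4 of 47, beside 6.79% of all genes) and ATP5J2 higher (1 of 47, beside 8.64%). Over both directions together the share of members lies below the background share, which is not so for the lower direction alone. The choice of these genes used this contrast, so nothing is read from these shares.

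The C libraries against the A and B libraries, with the antagomir as a term, form a comparison on which the genes were not chosen, although the split itself was known to stand out. Of the 47 members, 7 were higher in the C libraries, 1 was lower and 39 did not pass in limma (adjusted p under 0.05 over 6317 genes), so 17.0% passed, beside 29.5% of all tested genes. In the higher direction the share was 14.9% beside 17.2%, and in the lower direction 2.13% beside 12.3%. The median log2 difference was 0.07 over the members and 0.02 over all genes. Some summed markers moved with the letter. Fibroblast markers came to 372827 and 354091 normalized reads in the C libraries against 252474 to 285103 in the others. Endothelial markers came to 197 and 212 against 120 to 130, and epithelial markers to 75.6 and 56.6 against 92.5 to 99.3. Blood markers did not split by letter (33.6 and 47.5 against 42.0 to 56.6). Not every fibroblast marker rose: DCN had 5512 and 4994 for the controls (B, C) against 5868, 5913 and 5527 for the treated libraries (A, B, C). The part of the markers in the C differences was not tested. The letter is confounded with whatever else the C columns share, which cannot be told apart here.

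**Figure D4:**
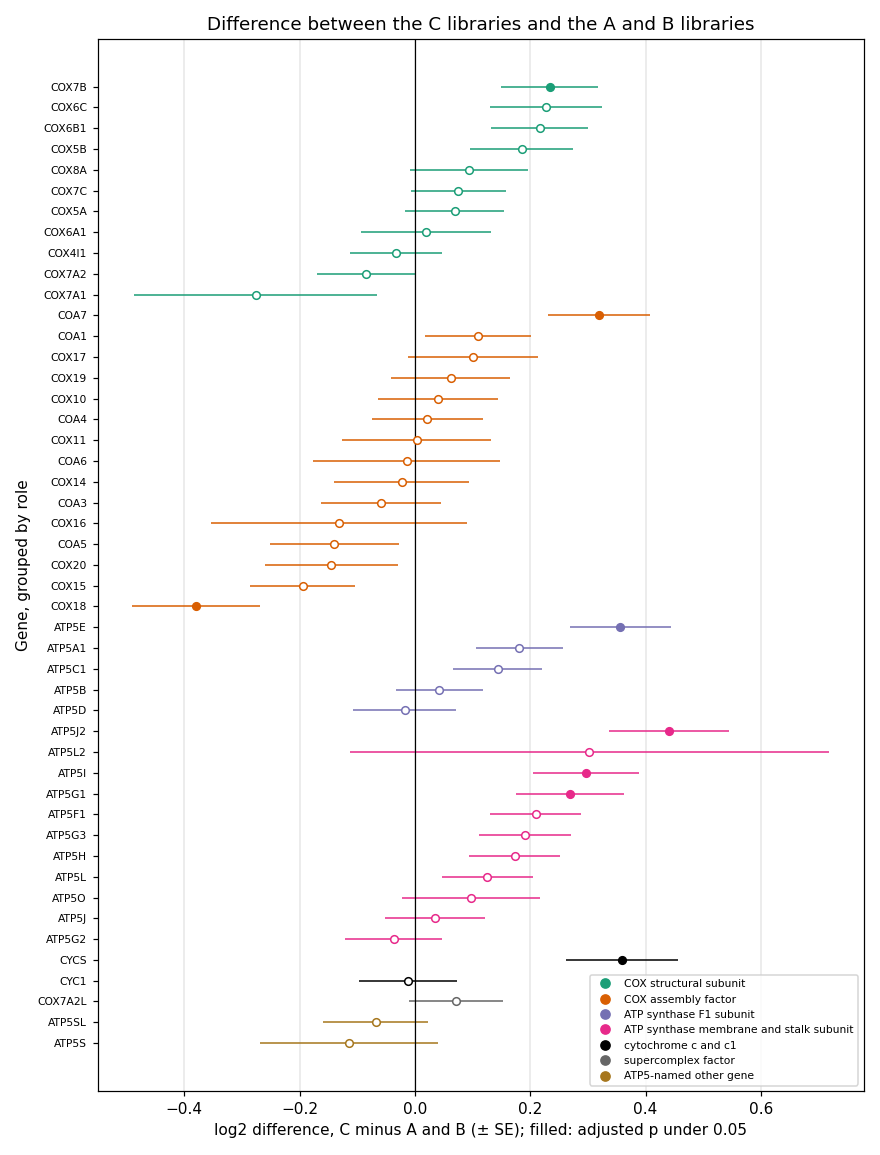
log2 difference between the C libraries and the A and B libraries (x axis, bars ± SE from limma, antagomir in the model) for the 47 tested genes (y axis) coloured by role; filled points have an adjusted p under 0.05. The 7 higher filled points lie right of zero, from 0.23 (COX7B) to 0.44 (ATP5J2), and COX18 lies left at −0.38.

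By role, 4 of the 16 tested ATP synthase subunits were called higher (25%, beside 17.2% of all genes) and 0 lower: ATP5J2, ATP5E, ATP5I and ATP5G1. ATP5J2 was 1.36-fold higher in the C libraries (log2 0.44, SE 0.10, adjusted p 0.00484 in limma), by 0.54 between the controls and by 0.36 among the anti-miR-146a libraries. ATP5E was 1.28-fold higher (log2 0.36, SE 0.09, adjusted p 0.00655 in limma), and its C to non-C gap was 0.19 in the controls and 0.48 with anti-miR-146a. ATP5I had 766 and 968 normalized reads for the controls (B, C) against 752, 852 and 963 for the treated libraries (A, B, C) (log2 0.30, adjusted p 0.0234 in limma). MYL5 shares 61.6% of ATP5I exon bases on the opposite strand. ATP5B, the most abundant, did not pass (log2 0.04, SE 0.08).

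CYCS was 1.28-fold higher in the C libraries (log2 0.36, SE 0.10, adjusted p 0.0114 in limma), while CYC1 did not pass (−0.01, SE 0.08). Among oxidase genes, COX7B was the only structural subunit called (log2 0.23, adjusted p 0.0494 in limma), a value next to the threshold. The assembly factors went both ways. COA7, a haem-binding assembly factor, had 1174 and 1338 normalized reads for the controls (B, C) against 1044, 982 and 1353 for the treated libraries (A, B, C), with both C libraries above the rest (log2 0.32, SE 0.09, adjusted p 0.0133 in limma). COX18 had 358 and 256 for the controls against 377, 339.5 and 290.3 for the treated libraries, with both C libraries below the rest (log2 −0.38, SE 0.11, adjusted p 0.0175 in limma). Without anti-miR-146a A, 4 members were called (ATP5E, ATP5J2, COA7 and CYCS). Without anti-miR-146a C, the C difference rests on control C against control B alone. It was then log2 0.54 for ATP5J2, 0.21 for CYCS, 0.19 for both ATP5E and COA7 and −0.48 for COX18. Without control B or without control C, the C difference rests on the anti-miR-146a libraries alone, so both settings give the same estimates. These were log2 0.36 for ATP5J2, 0.47 for CYCS and −0.30 for COX18. In them ATP5G1, COX18 and COX7B dropped out, and COA6 and COX6C were gained as higher. ATP5G1 and COX7B were also not called by edgeR, voom or DESeq2 or with TMM scaling, COX18 and ATP5I not by DESeq2, and no member was called without the filter on low values or with the letter alone in the model.

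Other genes of respiration, listed by name and not by how they moved, were read in the same fits. Only genes with a row that passed the filter count. In every list these genes have symbols from A to I, so later symbols of each pathway are not covered. Complex I is thus seen through 3 of 51 listed genes and complex III through 1 of 15, and complex II was not analysed here. Glycolysis is seen through 10 of 19, the citric acid cycle through 11 of 21 and the nuclear regulators through 7 of 16. In the antagomir comparison no gene of any list passed in limma. Unadjusted p fell under 0.05 for 1 of 11 coenzyme Q genes, 1 of 17 fatty acid oxidation genes, 2 of 31 mitochondrial translation and import genes and 1 of 7 nuclear regulators, and for none of the rest. Of 15 further assembly and regulation genes of the oxidase and ATP synthase, 13 were lower and 2 higher with anti-miR-146a (median log2 −0.08). Of 11 citric acid cycle genes 9 were lower (median −0.07), while 8 of 11 coenzyme Q synthesis genes (median 0.15) and 9 of 10 glycolysis genes (median 0.12) were higher. All tested genes had a median of 0.0046. Complex I genes (3 tested) had a median of 0.05, and BCS1L, an assembly factor of complex III and the only gene of that list tested, had 0.14. The mitochondrial translation and import list, itself drawn up only to the letter I, had 18 lower and 13 higher, and fatty acid oxidation 8 and 9.

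In the C comparison, in which 17.2% of all tested genes were higher and 12.3% lower, fatty acid oxidation (5 of 17, 29.4%), glycolysis (3 of 10) and the nuclear regulators (2 of 7, 28.6%) passed about as often as all genes did (29.5%). The coenzyme Q and citric acid cycle lists passed in 1 of 11 each (9.09%) and the further assembly and regulation genes in 2 of 15 (13.3%). CHCHD7 (1.39-fold) and CHCHD10 (1.34-fold), 2 twin-cysteine mitochondrial proteins, were higher in the C libraries among the 15 assembly and regulation genes. The 5 fatty acid oxidation genes called were all higher, led by ETFB (1.32-fold), which carries electrons from that pathway, DECR1 (1.24-fold) and ETFDH (1.23-fold). DLST of the citric acid cycle (1.17-fold) and DAP3 of the mitochondrial ribosome (1.25-fold) were also higher. ECSIT of complex I assembly and COQ8B of coenzyme Q synthesis were lower, at log2 −0.48 and −0.53. In glycolysis BPGM was higher (1.60-fold) and ALDOC and HK2 lower (log2 −0.68 and −0.25).

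Among the nuclear regulators EPAS1, which encodes the hypoxia factor HIF-2 alpha, was lower in the C libraries (log2 −0.99, SE 0.07): it had 9021 and 4568 normalized reads for the controls (B, C) against 8496, 8275 and 4200 for the treated libraries (A, B, C). GABPB2, a partner subunit of GABP, was also lower (log2 −0.34). GABPA, the DNA-binding subunit of GABP, is named here after its values were seen. Its C difference was 0.19 (SE 0.12) and did not pass. In the antagomir comparison it had 889.6 and 812 for the controls (B, C) against 648, 544 and 804 for the treated libraries (A, B, C), with no overlap. The antagomir log2 fold change was −0.37 (SE 0.18) for GABPA but 0.45 (SE 0.19) for GABPB2. GABPA was not the only regulator with such a gap. HIF1A, also named after its values were seen, had 15861 and 15247.5 for the controls against 11118, 11069.5 and 13562 for the treated libraries. Its log2 fold change was −0.39 (SE 0.13), with no overlap. Of the 7 nuclear regulators tested, 3 were lower and 4 higher with anti-miR-146a. GABPA lies beside ATP5J on the opposite strand and shares 20.2% of ATP5J exon bases. ATP5J, a stalk subunit, had an antagomir log2 fold change of −0.16 (SE 0.10).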

How the data were processed

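The submitters' processing notes name Trimmomatic 0.35 for trimming, STAR 2.5.1b for alignment, the build GRCh38 and DESeq2 1.22.2; no source used here gives the counter or its strand setting. The deposited signal is a read count divided by a size factor, and the authors also deposited a fold change, a p-value and an adjusted p-value. Every value is a whole multiple of its column's step within 1e-06 (100% of values), so reads could be recovered. The size factors ran from 0.989 to 1.10.

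limma 3.58.1 (R 4.3.3) was fitted with trend on log2(value + 1) to genes with at least 10 normalized reads in 2 libraries, Benjamini-Hochberg adjusted at 0.05. Fold changes of low genes are understated on that scale. Count tests (edgeR 4.0.16, DESeq2 1.42.0, limma voom) on recovered reads were alternatives. Lengths, overlaps and 3′ UTRs come from GENCODE 29, in which 17390 of 17390 rows with the same versioned ID had identical positions. The fits were also run on simulated counts, with the same spread setting for every gene and no C difference in the antagomir run. That run therefore does not show how the fits perform on these libraries. Members and lists were chosen with earlier results of these data known. Genes named in full are COX19, the 4 lowest and 4 highest by antagomir fold change, up to 4 called members with the widest C difference per direction, the 2 with the most reads per kb in each role, CYC1, CYCS and the isoform sets. Other lists give up to 3 called genes per direction or the 2 most abundant. Samples were grouped by label, and the column letters were not tied to numbered samples. One result that the naming rule covers is not reported here.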

Additional observations from a re-analysis of the deposited data

How the results depend on the processing

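The deposited columns carry letters and not the replicate numbers of the labels, so the letter served as the replicate block. What the letter stands for is not given, so this pairing is assumed. Letter A has no control, so anti-miR-146a A adds nothing to the estimate, which rests on the B and C pairs. This paired fit called 636 genes and 5 members in the antagomir comparison. The antagomir counts, 0 genes and 0 members, became 50 and 1 with DESeq2, 975 and 5 with the C letter as a term, and, leaving out both C columns, 1568 and 7. That fit has 1 control, assumed to vary like the treated libraries. Leaving out one library gave 0 to 12 genes (12 without anti-miR-146a C) and 0 members. The cause of these shifts was not tested. The 8 members named for their antagomir difference kept their sign in all 16 alternatives. They were picked as the lowest and highest fold changes in these same libraries, and most alternatives refit the same values. The kept signs are therefore not separate support. COX19 ran from −0.85 to −0.72 and ATP5J2 from 0.22 to 0.76. COX20 ran from −0.75 to −0.28.

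The C comparison called 1866 genes and 8 members. The counts were 1139 and 2 at an adjusted p under 0.01, 2372 and 13 at 0.10, 1171 and 4 with DESeq2, 826 and 0 without a filter on low values, and 692 and 0 with the C letter alone in the model. Leaving out one library gave 1489 to 1981 genes and 4 to 9 members. Leaving out control B and leaving out control C give the same C estimates, so they are not separate checks. The 5 members named for their C difference kept their direction in all 14 alternatives. They were picked from this comparison in the same libraries, so the kept directions are not separate support either. With TMM scaling the median over all genes moved from 0.02 to −0.02 and 6 members passed. The share of tested members with a miR-146a-5p match was 6.38% with 8mers only. With 2 and 3 libraries, small differences are not detectable, and levels per kb depend on the annotated length. The isoform shares by longest transcript were added after the data were seen.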
